A study of Mus musculus with 6 samples.

Results

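The interferon regulatory factors are a family of transcription factors, and 8 of its genes were followed here in the mouse pancreas: Irf1, Irf2, Irf3, Irf4, Irf5, Irf7, Irf8 and Irf9. They were the rows of a table of 22556 genes whose Ensembl identifiers map to these symbols, and were taken by name, not by a measured value. RNA was sequenced from the pancreases of 6 wild-type C57BL/6 mice, labelled as 8 weeks of age, with 2 mice in each of 3 groups. Control mice received saline. AP mice had acute pancreatitis (AP) induced with repeated injections of caerulein (spelled cerulein in the labels), a peptide that overstimulates the acinar cells of the pancreas. The last group received polyI:C, a synthetic double-stranded RNA that mimics a viral genome, before the same course of caerulein, and its mice are called pretreated mice below. Tissue was taken the day after the first caerulein injection. Mice given polyI:C without caerulein were not analysed here, so the effect of polyI:C is seen only on top of pancreatitis.

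Interferon regulatory factors bind the interferon-stimulated response element, a DNA stretch built on repeats of GAAA. Irf3 stands ready in most cells and is switched on by phosphorylation when double-stranded RNA is sensed. Irf7 is low in most resting cells and is itself induced by interferon, which lets it amplify the interferon response. Irf9 joins Stat2 in ISGF3, the complex through which type I interferon acts, and Irf1 is an activator induced by interferon-gamma and inflammatory signals. Irf2 is a broadly expressed counterpart that often opposes Irf1. Irf4, Irf5 and Irf8 work mainly in leukocytes: Irf4 in plasma cells and activated lymphocytes, Irf5 in macrophages and other myeloid cells, and Irf8 in monocytes, dendritic cells and B cells. Below, Irf1, Irf7 and Irf9 are called interferon-induced, Irf2 and Irf3 constitutive, and Irf4, Irf5 and Irf8 cell-type-bound.

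The start-site regions of 4 members are shown, Irf1, Irf2 and Irf8 because they hold motifs of interferon signalling and Irf7 because it had the largest change and holds none. Each is a window of 300 bases, 250 before and 50 after the transcription start, from RefSeq (GRCm38.p6), printed 5′ to 3′ along the gene. Both strands were searched for the core of the interferon-stimulated response element, GAAANNGAAA, and for the Stat-binding GAS motif, TTCNNNGAA. Capitals mark a match. Irf1, Irf8 and Irf9 have 2 windows each, and for Irf1 and Irf8 the one with matches is printed. The windows are Irf7 at chr7:141266375-141266674 on the minus strand, Irf1 at chr11:53769764-53770063, Irf8 at chr8:120736108-120736407 and Irf2 at chr8:46739495-46739794, the last 3 on the plus strand.
Irf7: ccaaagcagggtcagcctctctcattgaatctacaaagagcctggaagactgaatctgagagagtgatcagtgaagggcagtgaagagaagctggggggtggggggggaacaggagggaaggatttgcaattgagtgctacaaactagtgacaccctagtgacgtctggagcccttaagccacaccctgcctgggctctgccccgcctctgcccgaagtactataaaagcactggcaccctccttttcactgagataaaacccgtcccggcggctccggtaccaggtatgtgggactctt
Irf1: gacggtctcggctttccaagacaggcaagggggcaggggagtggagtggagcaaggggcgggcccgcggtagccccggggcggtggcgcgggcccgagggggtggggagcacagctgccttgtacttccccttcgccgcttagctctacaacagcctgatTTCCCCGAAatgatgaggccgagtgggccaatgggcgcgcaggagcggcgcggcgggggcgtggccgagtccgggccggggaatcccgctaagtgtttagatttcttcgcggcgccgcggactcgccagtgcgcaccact
Irf8: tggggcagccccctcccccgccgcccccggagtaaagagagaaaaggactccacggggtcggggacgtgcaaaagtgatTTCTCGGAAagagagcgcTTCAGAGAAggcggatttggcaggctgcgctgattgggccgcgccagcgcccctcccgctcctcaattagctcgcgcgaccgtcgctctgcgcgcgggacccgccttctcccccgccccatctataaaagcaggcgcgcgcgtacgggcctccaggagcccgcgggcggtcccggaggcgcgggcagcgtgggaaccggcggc
Irf2: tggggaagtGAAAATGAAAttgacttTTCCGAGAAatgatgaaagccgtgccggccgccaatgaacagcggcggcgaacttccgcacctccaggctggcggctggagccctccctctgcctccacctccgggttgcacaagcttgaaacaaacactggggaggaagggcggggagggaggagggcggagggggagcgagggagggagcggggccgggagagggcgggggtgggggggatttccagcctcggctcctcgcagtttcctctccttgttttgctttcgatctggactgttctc

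Irf1 held 1 GAS match, TTCCCCGAA, starting at position -90 from the start site. Irf8 held 2, TTCTCGGAA at -171 and TTCAGAGAA at -153. Irf2 held a response-element core, GAAAATGAAA at -241, and a GAS match, TTCCGAGAA at -224. No match was found in the windows of Irf3, Irf4, Irf5, Irf7 and Irf9, which says only that these letters do not occur in these windows. Over all 32817 windows of this length, 3.43% held the response-element core and 8.29% held GAS. Among the interferon-stimulated target genes described below, 18 of the 28 with a window (64.3%) held the core, against 3.98% of all 26994 genes with a window, and 8 (28.6%) held GAS, against 9.55%.

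The values are TPM, in which the reads of a gene are taken per length and every library adds up to one total. From the spacing of low values, the libraries were estimated to hold 3296193 to 3972575 reads in the saline mice, 6933145 to 8847355 in the AP mice and 8820736 to 10850772 in the pretreated mice. A gene of median length needs 0.216 and 0.266 TPM for 1 read in the saline mice, so low genes were least precise there. Fold changes are differences of mean log2(TPM + 0.5), fitted with limma over the 16814 genes averaging 1 TPM or more. To be called, a gene had to change 2-fold or more at an adjusted p (Benjamini-Hochberg, over all genes fitted) of 0.05 or less. All 8 members were tested. With 2 mice against 2, exact permutation allows no p below 0.333, so the calls lean on limma's pooling of variance across genes. The median gene shifted by 0.45 between AP and saline mice and by 0.48 between pretreated and saline mice. Median-of-ratios scaling brought these shifts to 0.05 and 0.05.

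In AP mice, 5 of the 8 members rose against saline mice and none fell, where 18.2% of all tested genes rose and 4.03% fell. The risers were Irf1, Irf5, Irf7, Irf8 and Irf9. The median log2 fold change of the 8 members was 1.63, against 0.45 for all tested genes. In pretreated mice against AP mice, 1 member (Irf7) rose and 1 (Irf5) fell, where 0.44% of genes rose and 0.404% fell, and the members' median was -0.17 against 0.04. Against saline mice, pretreated mice had 3 members higher (Irf1, Irf7 and Irf9) and none lower, where 16.9% of genes rose and 2.97% fell, with medians of 0.62 and 0.48. These comparisons share mice and are not independent of each other. The comparison of pretreated with AP mice was the least stable. Its 142 calls over all genes became 66 without pretreated replicate 1, 106 without saline replicate 2, and 0 with limma without AP replicate 1, AP replicate 2 or pretreated replicate 2. At an unadjusted p under 0.05, 721, 647 and 621 genes with a 2-fold change passed in those last 3 fits. With all 6 mice kept, the choice of prior alone moved the 142 calls to 28 (a prior following the mean log2 TPM) or 41 (1 prior variance for all genes), and with no filter there were 90. Where a fit leaves 1 mouse in a group, that mouse is assumed to vary like the others.

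**Figure D1:**
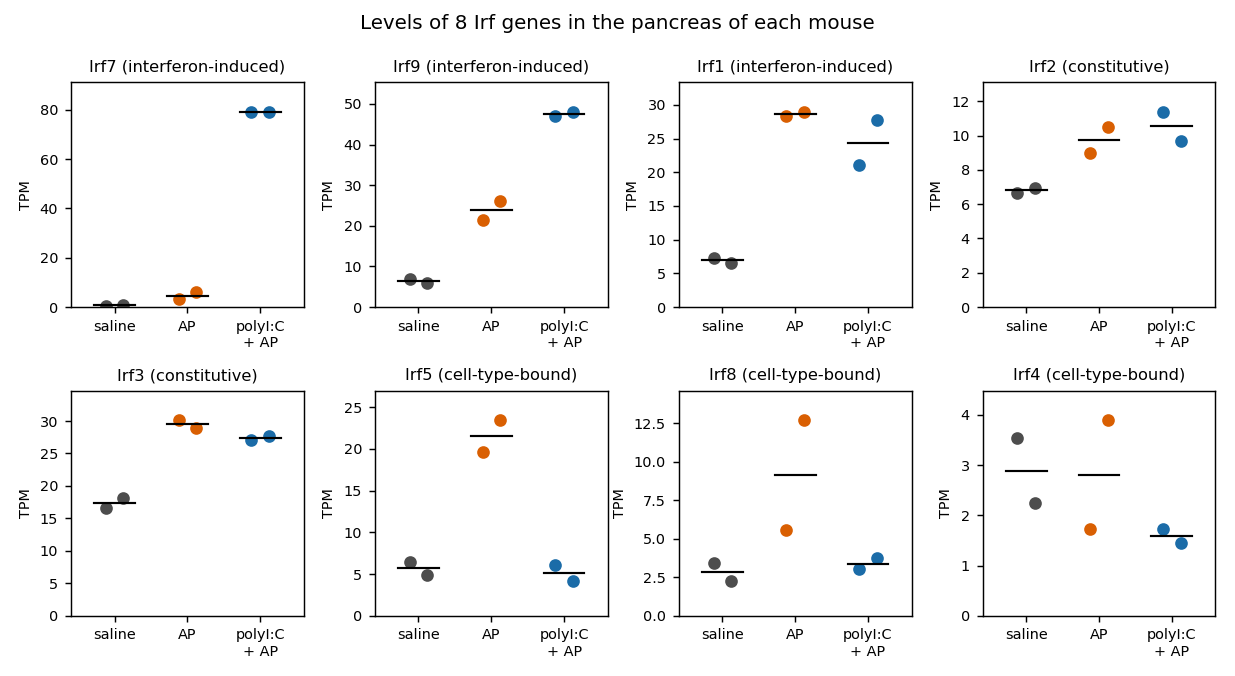
TPM of each of the 8 Irf genes (vertical axes, linear from 0, each gene on its own scale) in every mouse (points) of the saline, AP and pretreated groups, with black bars at the group means. Irf7 stands at 79.0 and 79.2 TPM in the pretreated mice (polyI:C + AP) and at most 6.14 TPM elsewhere, while Irf5 is high only in the AP mice, at 19.6 and 23.4 TPM.

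Irf7, the amplifier of the interferon response, had the largest fold change of the 8 members in both comparisons with pretreated mice. Its level was 0.604 and 0.878 TPM with saline, 3.15 and 6.14 TPM with AP alone, and 79.0 and 79.2 TPM in the pretreated mice. The 3 groups did not overlap, and the pretreated mice stood apart from all others. Irf7 rose by 4.01 on the log2 scale between AP and pretreated mice (SE 0.28, adjusted p = 0.0037), a 17.0-fold ratio of mean TPM. That change ranked 32nd from the top of 16814 genes. The direction was the same in all 16 alternative fits, with log2 fold changes from 3.58 to 4.45, but the adjusted p ranged from 0.00053 to 0.27. The call was lost without AP replicate 1 (adjusted p = 0.27), AP replicate 2 (0.11), pretreated replicate 1 (0.10) or replicate 2 (0.21), and with a single prior variance for all genes (0.065).

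Irf7 also rose in AP against saline mice, by 2.00 on the log2 scale (SE 0.28, adjusted p = 0.0018), and this call held in all 16 alternatives. The saline level rested on an estimated 3 and 4 reads, so its fold changes against saline are loosely bounded. By reads pooled over mice, 7 in saline and 88 in AP mice, the ratio was 6.58 with an exact 95% interval of 3.06 to 16.8. The same ratio for the pretreated mice, with 1768 reads, was 108 (52.1 to 268). These intervals cover counting error only, and take the estimated reads as exact.

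Irf9, the DNA-binding part of ISGF3, rose in both pancreatitis groups against saline mice. It stood at 6.90 and 5.91 TPM with saline, 21.5 and 26.1 TPM with AP alone, and 47.1 and 48.1 TPM in the pretreated mice, with no overlap between groups. The rise in AP against saline mice was 1.81 on the log2 scale (SE 0.14, adjusted p = 0.00023). Between AP and pretreated mice the log2 difference was 0.99 (95% interval 0.65 to 1.33, adjusted p = 0.035), just short of the 2-fold rule, so it is not counted as called. It passed in 1 of 16 alternatives, a pseudocount of 0.1 TPM, where the adjusted p was 0.049, and over the alternatives the adjusted p ranged from 0.0081 to 0.35. Against saline, the pretreated mice were 2.80 higher on the log2 scale (adjusted p = 5.9e-05).

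Irf1 rose in both pancreatitis groups against saline mice and did not pass between them. It measured 7.35 and 6.50 TPM with saline, 28.3 and 29.0 TPM with AP alone, and 21.1 and 27.7 TPM in the pretreated mice. Both pancreatitis groups lay above the saline mice, and the pretreated mice lay just below the AP mice. The rise in AP mice was 1.98 on the log2 scale (SE 0.17, adjusted p = 0.00033) and in pretreated mice 1.73 (adjusted p = 0.00058), and both held in all 16 alternatives. Between AP and pretreated mice Irf1 differed by -0.24 (95% interval -0.66 to 0.17, adjusted p = 0.62), an interval that excludes a 2-fold change in either direction. The interval of Irf7 for the same difference ran from 3.35 to 4.68.

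Of the constitutive members, Irf3 had the highest level of the 8 in the saline mice, at 16.6 and 18.2 TPM. It was 30.1 and 28.9 TPM with AP alone and 27.1 and 27.7 TPM in the pretreated mice. The log2 difference of AP from saline mice was 0.75 (adjusted p = 0.0047), under 2-fold and 0.33 (adjusted p = 0.12) after median-of-ratios scaling. Irf2 measured 6.68 and 6.92, 9.01 and 10.5, and 11.4 and 9.68 TPM in saline, AP and pretreated mice. Its log2 difference of AP from saline mice was 0.49 (adjusted p = 0.053) and 0.08 after that scaling. Neither gene passed between the pancreatitis groups, with 95% intervals for that log2 difference of -0.42 to 0.21 for Irf3 and -0.28 to 0.50 for Irf2.

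**Figure D2:**
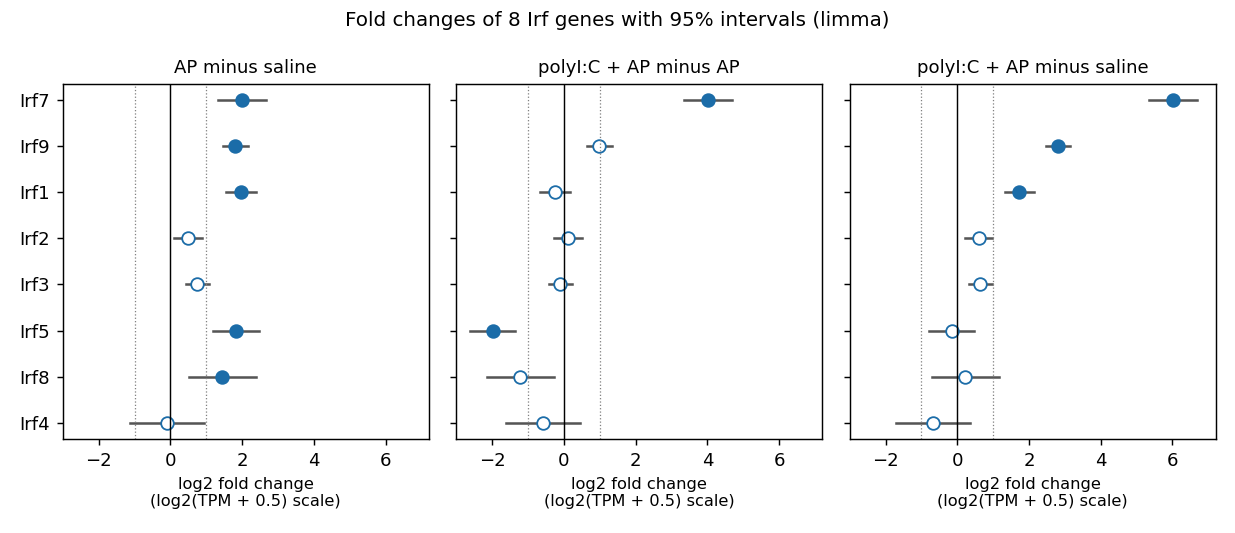
Log2 fold changes (horizontal axes) of the 8 Irf genes in 3 comparisons, with 95% intervals as lines. Filled points passed the threshold, dotted lines mark a 2-fold change, and the middle panel shows Irf7 at 4.01 and Irf5 at -1.99 on either side of 0.

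Irf5, the macrophage member, rose in AP mice and fell in pretreated against AP mice. Its level was 6.50 and 4.94 TPM with saline, 19.6 and 23.4 TPM with AP alone, and 6.07 and 4.15 TPM in the pretreated mice. The AP mice stood above both other groups, which overlapped. The rise in AP mice was 1.83 on the log2 scale (SE 0.27, adjusted p = 0.0021) and held in all 16 alternatives. Irf5 fell by 1.99 between AP and pretreated mice (SE 0.27, adjusted p = 0.027). This fall had the same direction in all 16 alternatives, from -2.24 to -1.74, and passed the threshold in 7 of them, with adjusted p between 0.0051 and 0.40. It was not called without AP replicate 1 (adjusted p = 0.35), AP replicate 2 (0.40), pretreated replicate 1 (0.11) or replicate 2 (0.28), or saline replicate 2 (0.059), nor with no filter (0.055), with only the 2 groups (0.052) or with either other prior (0.084 and 0.12). Against saline, the pretreated mice differed by -0.16 (95% interval -0.79 to 0.48).

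Irf8, the monocyte, dendritic and B-cell member, was highest in the AP mice, with a wide spread. It stood at 3.45 and 2.26 TPM with saline, 5.57 and 12.7 TPM with AP alone, and 3.03 and 3.74 TPM in the pretreated mice. The 2 AP mice lay above all other mice but far from each other. The rise in AP mice was 1.44 on the log2 scale (SE 0.39, adjusted p = 0.026), and the call was kept in 6 of 16 alternatives. With all mice kept, it was lost under median-of-ratios scaling (log2 fold change 1.06, adjusted p = 0.08) and with voom on estimated reads (1.34, adjusted p = 0.12). It was also lost with either other prior (adjusted p = 0.06 and 0.072) and with only the 2 groups compared (0.067). The call was lost as well without AP replicate 2 (log2 fold change 0.88), saline replicate 1 (1.70), saline replicate 2 (1.18) or either pretreated mouse (1.44). Between AP and pretreated mice the log2 difference of -1.21 did not pass (adjusted p = 0.24). Against saline, the pretreated mice differed by 0.23 (adjusted p = 0.68), and by -0.16 after median-of-ratios scaling.

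Irf4, the plasma-cell member, was low, at an estimated 13 to 51 reads per library, and passed no comparison. It measured 3.53 and 2.25, 1.73 and 3.89, and 1.73 and 1.44 TPM in saline, AP and pretreated mice. The AP mice spanned the saline values. The log2 difference of AP from saline mice was -0.09, with a 95% interval from -1.12 to 0.94 that leaves room for a change near 2-fold either way. Without AP replicate 1 it became 0.40 and without saline replicate 1 it became 0.18. The pretreated mice lay below the other groups' means, with log2 differences of -0.59 from AP mice (adjusted p = 0.63) and -0.68 from saline mice (adjusted p = 0.26).

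Macrophage and pan-leukocyte markers mostly moved with Irf5, and in whole-tissue RNA fewer cells of a type and less RNA per cell cannot be told apart. By flow cytometry of pancreases in this model, the paper reports fewer neutrophils after polyI:C and no effect on macrophage infiltration. Of 12 macrophage and monocyte markers, 10 rose in AP against saline mice and 5 fell in pretreated against AP mice, and no marker was at 0 in all mice. Their summed level was 459 to 695 TPM in saline, 2718 to 3133 TPM in AP and 630 to 771 TPM in pretreated mice. Most of it in AP mice was Lyz2, at 1890 and 2120 TPM, which was 203 and 119 TPM in pretreated mice. Against saline, 4 of the 12 were higher in pretreated mice (Cd14, Cd68, Fcgr1 and C1qa) and 2 were lower (Lyz2 and Csf1r). Ccr2, the receptor that draws monocytes into tissue, was 36.2 and 34.4 TPM in AP mice and 2.17 and 1.92 TPM in the pretreated mice, and fell by 3.82 on the log2 scale (adjusted p = 0.0028). Csf1r, the growth-factor receptor of macrophages, fell by 1.97 (adjusted p = 0.0052), close to the change of Irf5. In contrast, Cd14, a marker of monocytes that other cells can also induce, was 218 and 222 TPM in AP mice and 216 and 209 TPM in the pretreated mice. The 4 pan-leukocyte markers summed to 26.7 to 31.5, 95.2 to 129 and 25.9 to 27.7 TPM in the 3 groups, and all 4 rose in AP mice. All 4 were lower in pretreated than in AP mice, but only Coro1a passed (log2 difference -2.35, adjusted p = 0.0052). The adjusted p of the other markers was 0.072 to 0.15. Of 4 tested neutrophil markers 2 rose in AP mice, S100a9 and Retnlg. None of the 4 passed between AP and pretreated mice, with a median log2 difference of -0.76. S100a8 differed by 0.14 (adjusted p = 0.98), S100a9 by -0.44 (0.86) and Csf3r by -1.07 (0.34). Retnlg differed most, at 35.4 and 28 TPM in AP mice and 7.53 and 1.5 TPM in pretreated mice (adjusted p = 0.1). The part of these cells in the change of Irf5 was not tested.

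**Figure D3:**
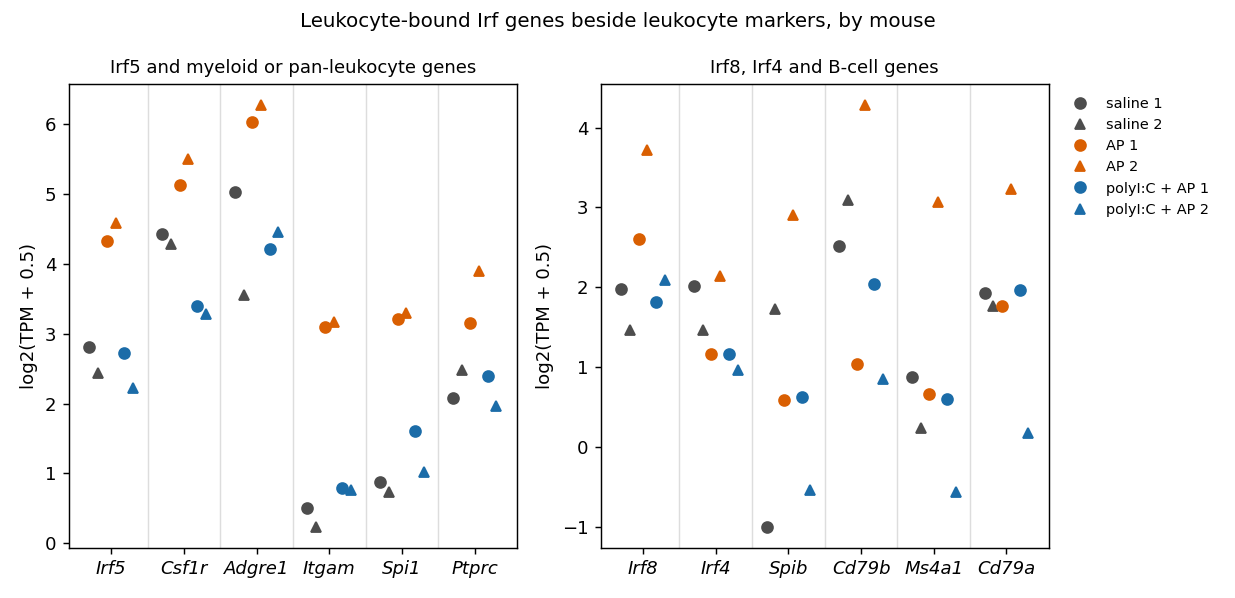
Log2(TPM + 0.5) of Irf5 beside macrophage and pan-leukocyte genes (left) and of Irf8 and Irf4 beside B-cell genes (right), with 1 point per mouse, coloured by group and shaped by replicate. The AP mice are the highest 2 for every gene on the left, while on the right AP replicate 2 (orange triangles) is the highest mouse for all 6 genes.

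The spread of Irf8 and Irf4 between the AP mice went with B-cell genes, which were higher in AP replicate 2 than in replicate 1. This split was not particular to B-cell genes. The 8 T- and NK-cell markers, all low, summed to 3.98 TPM in AP replicate 1 and 9.28 TPM in replicate 2, with Nkg7 alone lower in replicate 2. Ptprc, a pan-leukocyte marker, was 8.35 and 14.4 TPM, while Laptm5, another, was 15.9 and 15.3 TPM. Cd79b, part of the B-cell receptor, was 1.56 TPM in AP replicate 1 and 19.0 TPM in replicate 2, and Ms4a1 was 1.08 and 7.91 TPM. Cd79a, the partner chain of Cd79b, was 2.89 and 8.89 TPM. Spib, a B-cell partner of Irf4 and Irf8, was 0.997 and 6.98 TPM in the same mice. The saline mice had 5.21 and 8.00 TPM of Cd79b, and the pretreated mice 3.62 and 1.30 TPM. Within each of these groups Irf8 was higher in the mouse with less Cd79b. The list of 8 B- and plasma-cell markers summed to 40.9 to 45.8 TPM in saline, 278 to 310 TPM in AP and 262 to 301 TPM in pretreated mice. Only Sdc1, a plasma-cell marker that epithelium also makes, passed the threshold in AP mice, at 271 and 244 TPM. It made up most of the sum there and in the pretreated mice, at 244 and 231 TPM, so the sum is not a level of B cells. Jchain, another plasma-cell marker, was 63.7 TPM in pretreated replicate 2 and 1.13 to 10.8 TPM in the other mice. Of 8 dendritic-cell markers, 4 could be tested, with a median of -0.28 in AP against saline mice. Itgax rose in AP mice, Zbtb46 was 32.7 and 26.1 TPM in saline and 16.3 and 18.7 TPM in AP mice (log2 difference -0.73, adjusted p = 0.0092, under 2-fold), and Clec9a and Ccr9 differed by 0.04 and -0.60 without passing. Flt3, not tested, was 1.78 and 2.53 TPM in AP mice and at most 0.443 TPM in the other 4 mice. The part of B cells or dendritic cells in the level of Irf8 was not tested.

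Levels per length also gave the order of the members in each group. In the saline mice Irf3 led with a mean of 17.4 TPM, followed by Irf1, Irf2, Irf9 and Irf5 at 6.92 to 5.72 TPM, where each overlapped the next. Irf4 and Irf8 came next and overlapped, and Irf7 was last at 0.741 TPM. In AP mice Irf3 (29.5 TPM) and Irf1 (28.6 TPM) overlapped at the top, Irf9 and Irf5 overlapped below them, and Irf2, Irf8, Irf7 and Irf4 formed a last run in which neighbours overlapped. In pretreated mice Irf7 (79.1 TPM) led, then Irf9 (47.6 TPM), then Irf3 and Irf1, which overlapped, and Irf4 was last at 1.58 TPM.

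The summed level of the 8 genes was 51.6 and 47.8 TPM in saline, 119 and 141 TPM in AP, and 196 and 202 TPM in pretreated mice. Irf7 made up 1.17% and 1.83% of it in saline, 2.65% and 4.36% in AP, and 40.2% and 39.3% in the pretreated mice. The ratio of Irf7 to Irf3, its partner in interferon induction, was 0.0364 and 0.0482 in saline, 0.105 and 0.212 in AP, and 2.92 and 2.86 in the pretreated mice. For the contrast of classes, the mean log2 level of Irf4, Irf5 and Irf8 was subtracted from that of Irf1, Irf7 and Irf9 in each mouse, which cancels the scaling of a library up to the pseudocount. The difference was -0.27 and 0.19 in saline, 1.03 and 0.63 in AP, and 3.54 and 3.83 in the pretreated mice. Its means were -0.04 ± 0.32, 0.83 ± 0.28 and 3.68 ± 0.20 (SD, n = 2). The 3 groups did not overlap. Without Irf4 the means were -0.18, 0.11 and 3.30, and the saline mice (-0.39 and 0.03) and AP mice (0.26 and -0.04) overlapped. The members of a class did not move alike between AP and pretreated mice. The log2 differences were 4.01 for Irf7, 0.99 for Irf9 and -0.24 for Irf1. They were -1.99 for Irf5, -1.21 for Irf8 and -0.59 for Irf4. Irf7 had the largest of these changes, so the step is not a rise shared by its class.

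**Figure D4:**
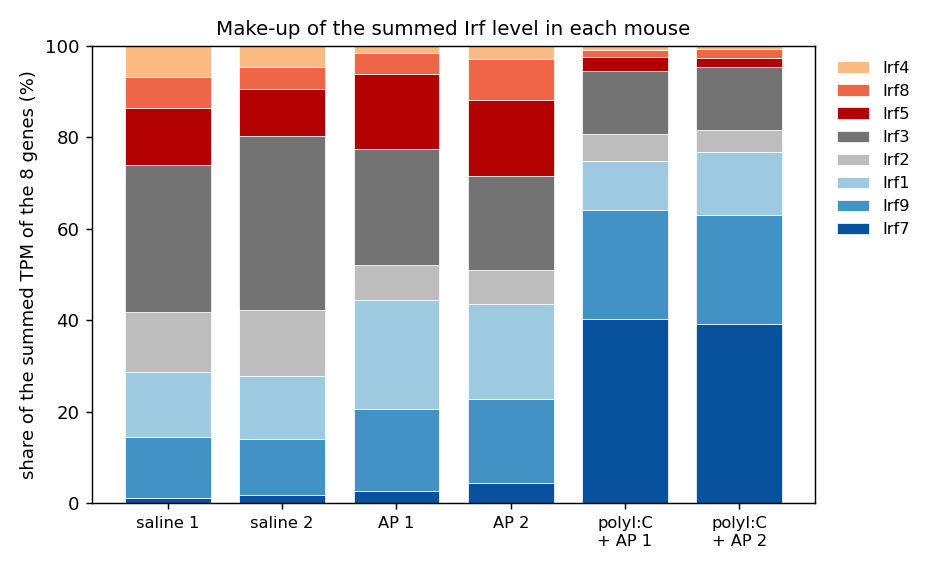
Share of the summed TPM of the 8 Irf genes (vertical axis, percent) taken by each gene in each of the 6 mice. The dark blue Irf7 segment is 1.17% to 4.36% in saline and AP mice and 40.2% and 39.3% in the pretreated mice.

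Upstream of the family, a list of 18 sensing genes was read, of which 16 could be tested. In AP against saline mice 10 rose and none fell, with a median of 1.41 against 0.45 for all tested genes. Tlr3, the endosomal receptor for double-stranded RNA, went from 1.10 and 0.783 TPM in saline to 10.1 and 6.29 TPM in AP mice, a rise of 2.56 on the log2 scale (adjusted p = 0.00068), and was 9.12 and 8.64 TPM in the pretreated mice. Tbk1, the kinase that phosphorylates Irf3 and Irf7, differed by 0.62 from saline in AP mice, under 2-fold. Mavs, the adaptor of the RIG-I-like receptors, was 16.2 to 20.6 TPM in all mice. Between AP and pretreated mice 1 of the 16 passed, Dhx58, a RIG-I-like receptor, which rose by 1.49 (adjusted p = 0.042). That call was lost on leaving out each of the 6 mice in turn. The median of the 16 was 0.003 here, against 0.04 for all genes. Against saline, 10 of the 16 were higher in pretreated mice, with a median of 1.14. Tmem173, which encodes Sting, was 26.8 and 26.0 TPM in AP mice and 13.9 and 12.8 TPM in pretreated mice, a log2 difference of -0.96 that did not pass (adjusted p = 0.066). Of 8 interferon genes listed, 1 could be read, Ifnk, at 1.05 to 18.5 TPM, and it passed no comparison.

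Of the interferon receptor and ISGF3 list, 11 of 12 genes were tested and 8 rose in AP mice with a median of 1.27, a count that was 4 after median-of-ratios scaling and 4 without AP replicate 2. Ifnar1, a chain of the type I interferon receptor, rose by 1.18 (adjusted p = 0.0006). Stat2, the ISGF3 partner of Irf9, was 14.1 and 6.95 TPM in saline, 24.8 and 30.8 TPM in AP, and 57.6 and 63.1 TPM in pretreated mice. Its log2 difference between AP and pretreated mice was 1.11 (adjusted p = 0.16). None of the 11 genes passed between AP and pretreated mice by limma, against 2 at an unadjusted p and 2 with voom on estimated reads. Against saline, 8 of the 11 were higher in the pretreated mice, 4 without pretreated replicate 1 and 5 without replicate 2.

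Downstream, 32 of 34 interferon-stimulated target genes were tested. In AP mice 26 rose and none fell, with a median of 1.71, and voom on estimated reads called 17. The largest rise past the threshold was that of Rsad2, an antiviral enzyme, from 3.91 and 2.97 to 70.3 and 94.8 TPM, or 4.39 on the log2 scale (adjusted p = 3.4e-05). Between AP and pretreated mice 13 rose and none fell, with a median of 1.41, against 0.04 for all genes. Ifit1, which binds viral RNA, was 4.05 and 9.61 TPM in AP mice and 62.2 and 63.7 TPM in pretreated mice, the largest rise of the list at 3.23 (adjusted p = 0.031). Bst2, which tethers virus particles to cells, went from 172 and 202 to 961 and 994 TPM (2.39, adjusted p = 0.0028). Mx1, an antiviral GTPase, was 3.58 and 4.92 TPM in AP and 4.20 and 3.05 TPM in pretreated mice (log2 difference -0.20, adjusted p = 0.87). The count of 13 became 8 without saline replicate 2, 1 without pretreated replicate 1, and 0 with limma without AP replicate 1, AP replicate 2 or pretreated replicate 2, where 17, 25 and 18 passed at an unadjusted p. With all mice kept it was 2 with a prior following the mean log2 TPM, 3 with 1 prior variance for all genes, 6 with no filter and 8 with only the 2 groups compared. Against saline, all 32 tested targets were higher in the pretreated mice, with a median of 3.49, and 31 after median-of-ratios scaling.

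**Figure D5:**
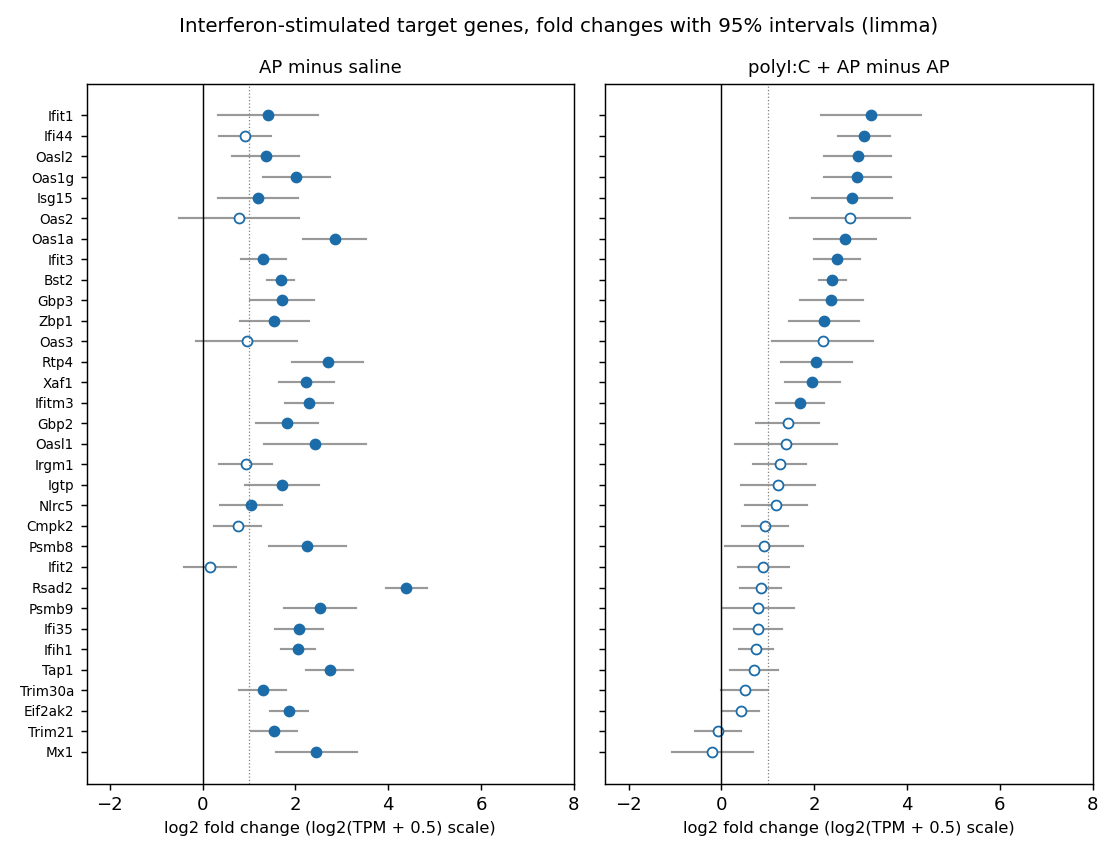
Log2 fold changes (horizontal axes) of the 32 tested interferon-stimulated target genes in AP against saline mice (left) and pretreated against AP mice (right), which share the AP mice, with 95% intervals. Filled points passed the threshold, 26 on the left and 13 on the right, and the dotted line marks a 2-fold rise.

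Among 15 tested partners and regulators of the family, 5 rose in AP mice and none fell, with a median of 0.86, and 3 rose without AP replicate 2. Of all tested genes, 18.2% rose in AP mice, with a median of 0.45. Against saline, 4 of the 15 were higher in pretreated mice, where 16.9% of all genes rose. The lists overlap: Spi1 is also among the macrophage markers, and Trim21 and Trim30a are also among the interferon-stimulated targets. Spi1, which encodes PU.1 and binds DNA together with Irf4 and Irf8, was 1.33 and 1.17 TPM in saline, 8.73 and 9.27 TPM in AP, and 2.55 and 1.52 TPM in pretreated mice. It rose by 2.44 in AP mice (adjusted p = 0.0021), and the log2 difference of -1.94 between AP and pretreated mice did not pass (adjusted p = 0.065). Batf, a partner of Irf4 in lymphocytes, was 10.8 and 14.3 TPM in AP mice and 9.19 and 11.1 TPM in pretreated mice. The ubiquitin ligase gene Trim21 was also higher in AP than saline mice, by 1.54 (adjusted p = 0.0017). Between AP and pretreated mice none of the 15 passed by limma, against 2 at an unadjusted p and 2 with voom, all lower in pretreated mice.

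Genes with the most similar pattern were ranked by Pearson's r of log2(TPM + 0.5) over the 6 mice, among the 9414 genes averaging 10 TPM or more. With 6 points in 3 groups, such values are a description of likeness in these libraries only. They compare the shape of a pattern and not the size of a change. Irf7 was closest to Aga, a lysosomal enzyme gene (r = 0.9993), and Ifit3 (0.9973). Aga changed by 0.36 from saline to AP mice and by 0.73 from AP to pretreated mice on the log2 scale. Irf7 changed by 2.00 and 4.01. Irf9 was closest to Top3b (0.9996), Ogfr (0.9982) and Dtx3l (0.998), and Dtx3l rose by 1.70 and 1.13 on the log2 scale in the successive steps. Irf5 was closest to Osbpl2 (0.9953) and Emb (0.9944). Irf1 was closest to Tuba1c and Arl6ip1, both at 0.998. The closest genes of Irf8 and Irf4, Chka (0.984) and Tubgcp5 (0.9677), lay further off. Chka changed by 0.14 and -0.10 in these steps, against 1.44 and -1.21 for Irf8.

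Reads near these genes could be shared with neighbours, since the setting for strand in the counting is not given in the sources used here. Irf5 shares 411 exon bases, 14.1% of its exon length, with Tnpo3 on the opposite strand. Tnpo3 was 19.98 and 23.1 TPM in saline, 42.8 and 38.5 TPM in AP, and 31.9 and 28.3 TPM in pretreated mice, and its log2 difference between the latter groups was -0.43 (adjusted p = 0.17), against -1.99 for Irf5. For Irf1, Irf3, Irf7 and Irf9 the shared part was 1.19% to 3.4% of exon bases. The genes lie on GRCm38 at chromosome 7, 141262706 to 141266481 (Irf7), chromosome 14, 55603571 to 55610030 (Irf9), chromosome 11, 53770014 to 53778374 (Irf1), chromosome 6, 29526625 to 29541871 (Irf5), chromosome 8, 120736358 to 120756694 (Irf8) and 46739732 to 46847458 (Irf2), chromosome 7, 44997648 to 45002848 (Irf3), and chromosome 13, 30749226 to 30766976 (Irf4). Sequence shared with other genes over 100-base stretches was found only for Irf9, in 0.411% of its stretches, with Rnf31.

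The label of the tissue was checked against markers. Of 14 acinar markers 5 could be read, and Bhlha15, a regulator of acinar cells, was 391 and 326 TPM in saline, 53.6 and 46.4 TPM in AP, and 161 and 171 TPM in pretreated mice. The readable acinar markers summed to 872 to 1056 TPM in saline, 291 to 342 TPM in AP and 643 to 662 TPM in pretreated mice. The sum was carried by Amy2a5, Bhlha15 and Rbpjl, which fell in AP mice. The other 2 did not pass, with Ptf1a at 44.5 and 40.8 TPM in saline and 55.2 and 43.4 TPM in AP mice and Nr5a2 at 92.4 and 97.0 TPM and 107 and 105 TPM. In pretreated mice they differed from saline by 0.93 (adjusted p = 0.016) and 0.71 (adjusted p = 0.002), under 2-fold. The islet markers summed to 835 to 1620 TPM across the 6 mice, and the ductal markers to 203 to 205 TPM in saline and 1636 to 2000 TPM in the other groups. As TPM are shares of a fixed total, the part of this change in tissue make-up in the levels of the Irf genes was not tested.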

How the data were processed

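The pancreas libraries of 6 mice were used, with groups and replicate numbers taken from the labels, 1 table per mouse. The authors trimmed reads with Trimmomatic, mapped them with STAR to mm10, counted them with HTSeq and tested counts with DESeq2, per the submitters' processing notes, and deposited TPM per gene. The step from counts to TPM is not given in the sources used here. The labels name both a ribosomal RNA depletion kit and a stranded mRNA kit, and place all libraries in lane 2 of a flow cell. As TPM are not counts, limma 3.58.1 in R 4.3.3 was used on log2(TPM + 0.5), with 1 coefficient per group, all 6 samples and 3 residual degrees of freedom. The prior variance followed log2(mean TPM × exon length + 1). A call needed a 2-fold change and an adjusted p (Benjamini-Hochberg) no higher than 0.05. Replicates were separate mice. The p-values rest on 1 variance per gene, pooled over all groups and moderated toward that of other genes. A gene's SE in the main fit is therefore the same in every comparison, and does not measure the spread of the compared groups alone.

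GENCODE M21 held 22490 of the 22556 gene identifiers and gave symbols, exon lengths and GRCm38 coordinates. Reads per library were estimated from the step whose whole multiples best matched low TPM × length values (up to 20 reads, tolerance 0.1). The match was partial, with 51.2% to 62.4% of such values on a multiple, against 19.2% to 20.6% with gene lengths shuffled. It was lowest in the saline mice (52.6% and 51.2%), so read numbers are approximate. The limma code was checked on simulated counts with the same relative spread beyond counting error for every gene. That check does not bear on how the calls here depend on the prior. The genes named are the 8 members, up to 4 genes of each list (largest and smallest change past the threshold, or a gene whose role is given beside a member), marker genes, and the 3 genes most like a member. Members and lists were chosen with earlier results of these data known. The family has 9 rows in the tables, and 1 of them, like a few genes of the lists, is not reported here. Alternatives were other pseudocounts, filters, scalings, priors, a replicate block, a fit of 2 groups, voom on estimated reads and leaving out each mouse.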

Additional observations from a re-analysis of the deposited data

How the results depend on the processing

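Of 240 fold changes of members recomputed under alternatives other than leaving out a mouse, 227 kept their direction and side of the threshold, 10 lost the call, 1 gained it and 2 changed sign. Of 144 without 1 mouse, 124 kept both, 14 lost the call and 6 changed sign. The count of members past the threshold in pretreated against AP mice, 2, was 1 with no filter on low values, 1 with a prior following the mean log2 TPM, 0 with 1 prior variance for all genes (limma; 3 at an unadjusted p, 2 with voom on estimated reads) and 1 with only the 2 groups compared. Without 1 mouse it ranged from 0 to 2, and 2 or 3 members passed at an unadjusted p in the fits that gave 0. In pretreated against saline mice 5 members passed by adjusted p alone, against 3, and the count without 1 mouse ranged from 3 to 3. In AP against saline mice it ranged from 4 to 5. Sign changes were found among values that passed no test. They were Irf4 in AP against saline mice (-0.58 to 0.40 without 1 mouse), Irf2 in pretreated against AP mice (-0.0058 to 0.22), Irf5 in pretreated against saline mice (-0.41 to 0.091) and Irf8 in the same comparison (-0.031 to 0.49 without 1 mouse, -0.16 under median-of-ratios scaling, -0.049 with voom). The class difference of the saline mice was 0.019 with a pseudocount of 1 TPM, and -0.27 or 0.19 without 1 saline mouse. It ranged from 0.63 to 1.03 in AP and from 3.54 to 3.83 in pretreated mice without 1 mouse, and was 0.11 and 3.30 without Irf4. The cause of these changes was not tested.

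Same-numbered mice did not deviate together (correlation across genes 0.0075, 0.035 and -0.0039 for the 3 pairs of groups), so the numbers are not taken as pairs. With a replicate block 5, 2 and 3 members passed in the 3 comparisons, and the calls over all genes were 3646, 124 and 3284, against 3730, 142 and 3338. Counts for the 4 gene lists under the alternatives were added after seeing the data. The shallow saline libraries limit low genes, Irf7 above all.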
